A study of Mus musculus with 6 samples.

Results

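The genes described here are zinc finger genes of 3 symbol groups: Zfp symbols with a 3-digit number from 600 up, Zkscan symbols and Zscan symbols. A gene was included if its mean level in the untreated libraries was at least 0.5 cRPKM. This is the authors' read count scaled to library total and to a length per gene. The labels do not define that length, which can be far shorter than the transcript. Of 185 matching symbols, 7 had no value and 22 lay below that level, which left 156 members among 21553 genes with values. There were 135 Zfp, 11 Zkscan and 10 Zscan members. The members were selected on their untreated level, so those levels are a description. Just inside the threshold lay Zfp783 with 0.54 and 0.59 cRPKM and Zscan30 with 0.72 and 0.63 cRPKM in the untreated libraries. Just outside it lay Zfp979 with 0.47 and 0.31 cRPKM and Zfp990 with 0.39 and 0.23 cRPKM.

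Proteins of this kind bind DNA through arrays of C2H2 zinc fingers, in which a pair of cysteines and a pair of histidines hold a zinc ion. Many also carry a KRAB domain, which binds the corepressor Trim28 and through it the histone methyltransferase Setdb1. KRAB zinc finger proteins are known for silencing transposable elements. The SCAN domain, which the Zscan and Zkscan symbols denote, lets such proteins pair with each other, and the Zkscan symbols denote SCAN together with KRAB.

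RNA came from hippocampal neurons of C57bl/6 mouse embryos (E16.5), kept 10 days in culture. They were untreated, or held in 55 mM KCl for 0.5 h or for 3 h, which depolarises neurons and mimics activity. No transgene or other genotype is named. Each of the 3 groups had 2 libraries that the labels call biological duplicates without further detail. The p-values therefore cover the spread among these libraries, which may be technical. The libraries held 98882007 to 141865913 counts, of which the members took 0.321% to 0.337% in the 4 untreated and 0.5 h libraries and 0.289% and 0.303% at 3 h. The summed level of 10 pan-neuronal markers was 1980 and 1480 cRPKM at 3 h, 2270 and 2100 cRPKM at 0.5 h, and 2330 and 2230 cRPKM in untreated neurons. The summed level of 9 astrocyte markers was 1080 and 2210 cRPKM at 3 h, 1040 and 1680 cRPKM at 0.5 h, and 1040 and 1540 cRPKM in untreated neurons. Excitatory neuron markers summed to 296 to 357 cRPKM at 3 h, 407 to 503 at 0.5 h and 421 to 556 in untreated neurons, and interneuron markers to 336 to 439, 414 to 648 and 424 to 670. Immediate early genes, which follow activity, summed to 942 to 1240 cRPKM at 3 h, 871 to 892 at 0.5 h and 72.0 to 89.4 in untreated neurons. Microglial markers summed to at most 1.5 cRPKM and endothelial markers to at most 1.46 cRPKM in any library. Without a replicate block none of the neuronal or astrocyte markers was called in the 3 h comparisons. With replicate number as a block, 6 of 10 interneuron, 2 of 10 pan-neuronal and 1 of 8 excitatory markers were lower and 4 of 9 astrocyte markers higher at 3 h than in untreated neurons. Against 0.5 h the blocked counts were 4, 1 and 1 lower and 2 higher. The part of these markers in the results below was not tested. In bulk RNA fewer cells of a type and less RNA per cell cannot be told apart.

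Between 0.5 h and 3 h of KCl the members moved mainly down. At 3 h, 35 of 155 tested members (22.6%) were lower than at 0.5 h and 5 (3.23%) were higher, by edgeR's quasi-likelihood test with a Benjamini-Hochberg adjusted p under 0.05. Of all 15895 genes tested, 4.87% were called lower and 6.39% higher. The median log2 change was −0.24 over the members and −0.03 over all genes tested, and 105 of the 155 members lay below 0. Falls of at least 2-fold made up 18 of the 35. In 89 members both 3 h libraries were below both 0.5 h libraries in cRPKM, and in 16 both were above, where all genes gave 35.4% and 21.0%. With replicate number as a block the counts were 55 lower and 10 higher, against 15.6% of all genes in each direction, and all 35 falls were among the 55. DESeq2 called 51 lower and 11 higher, against 9.95% and 12.2% of all genes. Without untreated replicate 1 or untreated replicate 2, 7 members were called lower and 1 higher. Leaving out either 0.5 h library removed every call of a member in both directions. Each of these fits leaves 1 group with a single library. The library labelled 3 h replicate 1 was below replicate 2 in 121 of 156 members (77.6%) and in 59.1% of all genes tested. The share of this difference in the calls was not tested.

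The largest fall was that of Zkscan7 (ENSMUSG00000063488). It had 0.24 and 0.28 cRPKM at 3 h, against 1.39 in both libraries at 0.5 h, with 1.27 and 1.24 in untreated neurons. Its 3 h libraries were far below all 4 others, a log2 change against 0.5 h of −2.35 ± 0.20 (SE; edgeR adjusted p = 0.0097), or 5.09-fold lower. Zkscan16 (ENSMUSG00000038630) had 0.96 and 1.31 cRPKM at 3 h, against 4.31 and 5.53 at 0.5 h, with 4.06 and 5.91 in untreated neurons. The groups did not overlap, and the change was −2.05 ± 0.25 (adjusted p = 0.013). Zkscan4 (ENSMUSG00000054931) had 0.68 and 0.91 cRPKM at 3 h, against 2.72 and 2.61 at 0.5 h, with 2.57 and 3.29 in untreated neurons. Again both 3 h libraries were below the 4 others, with a change of −1.68 ± 0.22 (adjusted p = 0.015). Of the transcript stretches of Zkscan4, 23.8% of 50-base words also occur in another gene, most of them in Zkscan3, so its counts could be shared with that gene.

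Zfp genes made up the rest of the 10 largest falls. Zfp759 (ENSMUSG00000057396) had 0.60 and 1.09 cRPKM at 3 h, against 2.74 and 2.79 at 0.5 h, with 3.15 and 3.23 in untreated neurons. Zfp677 (ENSMUSG00000062743) had 0.29 and 0.43 cRPKM at 3 h, against 1.17 and 1.19 at 0.5 h, with 1.04 and 1.10 in untreated neurons. In both genes the 3 h libraries lay below all others, and both changed by −1.65, with an SE of 0.27 for Zfp759 and 0.23 for Zfp677 (adjusted p = 0.024 and 0.017). Zfp839 (ENSMUSG00000021271) had 0.66 and 0.81 cRPKM at 3 h, against 2.19 and 2.35 at 0.5 h, with 2.29 and 2.57 in untreated neurons. Its change was −1.55 ± 0.16 (adjusted p = 0.012), and unlike most members its annotated coding sequence held 0 fingers by the spacing searched here. Zfp712 (ENSMUSG00000090641) had 0.40 and 0.73 cRPKM at 3 h, against 1.60 and 1.49 at 0.5 h, with 1.81 and 1.71 in untreated neurons. Zfp964 (ENSMUSG00000091764) had 0.49 and 0.52 cRPKM at 3 h, against 1.26 and 1.39 at 0.5 h, with 1.27 and 1.14 in untreated neurons. Both were low at 3 h alone. Zfp786 (ENSMUSG00000051499) had 0.74 and 0.87 cRPKM at 3 h, against 2.24 and 1.94 at 0.5 h, with 2.35 and 2.38 in untreated neurons. Zfp879 (ENSMUSG00000044296) had 0.42 and 0.57 cRPKM at 3 h, against 1.21 and 1.26 at 0.5 h, with 1.15 and 1.37 in untreated neurons. In each of these 4 genes both 3 h libraries were below both libraries of either other group. Zfp712 changed by −1.40 ± 0.28, Zfp964 by −1.31 ± 0.21, Zfp786 by −1.30 ± 0.16 and Zfp879 by −1.25 ± 0.22, with adjusted p of 0.036, 0.023, 0.015 and 0.027. The other 25 falls ran from −1.20 to −0.44. They included Zfp827, whose human counterpart brings a nucleosome remodelling complex to telomeres, at 3.07 and 2.44 cRPKM at 3 h, against 6.69 and 5.34 at 0.5 h (−1.05 ± 0.20, adjusted p = 0.033; chosen after its values were seen). Over the 10 largest falls, the 5 named Zkscan7, Zkscan16, Zkscan4, Zfp839 and Zfp786 were also called without either untreated library (adjusted p 0.03 to 0.078 over the 10). All 10 were called without 3 h replicate 1 (0.016 to 0.04), and all but Zfp964 without 3 h replicate 2 (0.016 to 0.051). None was called without 0.5 h replicate 1 (0.083 to 0.16) or 0.5 h replicate 2 (0.085 to 0.17), where 0 of all genes tested were.

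**Figure D1:**
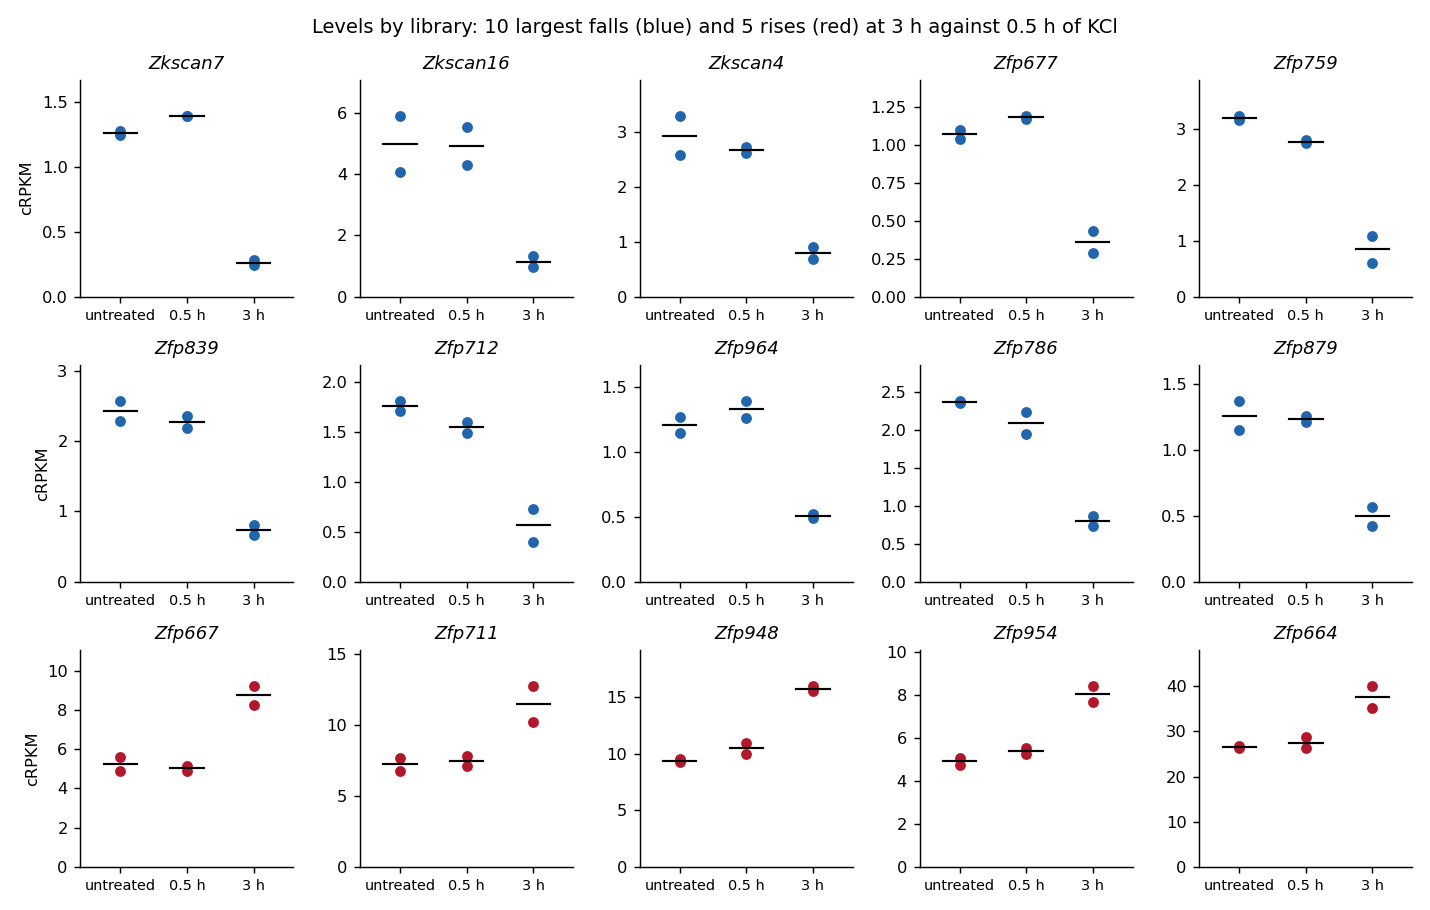
Levels in cRPKM (linear axes starting at 0) of the 10 largest falls (blue) and the 5 rises (red) at 3 h against 0.5 h. Points are the 2 libraries of each time and bars their mean; in every panel both 3 h libraries lie on the same side of the other 4.

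Promoter sequences of 7 members are shown because they set genes that fell beside near neighbours that did not, or belong to genes with large falls. They are RefSeq sequences of build GRCm38.p6, the 250 bases before and 50 after the annotated start, written 5′ to 3′ along the gene. Zkscan4 (chr13:21478599-21478898, plus strand), Zkscan8 (chr13:21531065-21531364, minus strand) and Zscan12 (chr13:21362570-21362869, plus strand) are neighbours, of which Zkscan4 and Zkscan8 fell. Zfp677 (chr17:21383498-21383797, plus strand) fell and its neighbour Zfp948 (chr17:21566728-21567027, plus strand) rose. Zfp759 (chr13:67127978-67128277, plus strand) and Zfp839 (chr12:110850029-110850328, plus strand) were among the 10 largest falls. Capitals mark CGGAAG on either strand, the core letters bound by ETS factors, in Zkscan8 as a pair of overlapping matches on opposite strands.
Zkscan4: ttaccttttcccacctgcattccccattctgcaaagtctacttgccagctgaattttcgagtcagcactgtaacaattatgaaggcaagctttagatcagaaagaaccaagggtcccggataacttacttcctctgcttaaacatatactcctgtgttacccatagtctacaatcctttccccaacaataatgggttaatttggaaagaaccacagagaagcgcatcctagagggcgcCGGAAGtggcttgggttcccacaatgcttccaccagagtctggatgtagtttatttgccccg
Zkscan8: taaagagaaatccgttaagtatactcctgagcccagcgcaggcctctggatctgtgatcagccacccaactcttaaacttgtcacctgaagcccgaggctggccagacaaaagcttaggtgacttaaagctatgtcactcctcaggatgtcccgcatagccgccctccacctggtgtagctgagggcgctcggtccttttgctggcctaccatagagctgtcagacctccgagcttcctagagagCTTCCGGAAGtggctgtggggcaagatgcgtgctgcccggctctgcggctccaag
Zscan12: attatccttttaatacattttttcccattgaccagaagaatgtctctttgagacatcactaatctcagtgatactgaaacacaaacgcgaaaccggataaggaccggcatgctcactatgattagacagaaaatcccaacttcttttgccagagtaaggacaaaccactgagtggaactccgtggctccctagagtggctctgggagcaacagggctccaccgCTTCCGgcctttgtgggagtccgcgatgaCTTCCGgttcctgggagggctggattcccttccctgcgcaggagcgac
Zfp677: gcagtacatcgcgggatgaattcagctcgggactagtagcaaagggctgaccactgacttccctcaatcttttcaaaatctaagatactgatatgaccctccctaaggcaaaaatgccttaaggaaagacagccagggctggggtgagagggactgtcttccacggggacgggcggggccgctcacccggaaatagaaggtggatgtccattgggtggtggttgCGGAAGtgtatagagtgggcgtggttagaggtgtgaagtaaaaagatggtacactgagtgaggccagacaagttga
Zfp948: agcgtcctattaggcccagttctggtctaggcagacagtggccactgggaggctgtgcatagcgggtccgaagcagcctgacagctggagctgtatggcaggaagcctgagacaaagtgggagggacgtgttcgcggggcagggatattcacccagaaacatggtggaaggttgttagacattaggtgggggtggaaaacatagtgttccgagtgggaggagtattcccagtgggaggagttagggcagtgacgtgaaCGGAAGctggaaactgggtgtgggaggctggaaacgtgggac
Zfp759: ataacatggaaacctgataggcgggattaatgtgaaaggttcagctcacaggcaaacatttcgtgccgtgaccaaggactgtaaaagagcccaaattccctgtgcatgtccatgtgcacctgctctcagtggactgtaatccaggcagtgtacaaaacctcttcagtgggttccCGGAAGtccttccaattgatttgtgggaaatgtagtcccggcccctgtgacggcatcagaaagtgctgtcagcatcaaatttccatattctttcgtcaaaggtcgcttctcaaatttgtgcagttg
Zfp839: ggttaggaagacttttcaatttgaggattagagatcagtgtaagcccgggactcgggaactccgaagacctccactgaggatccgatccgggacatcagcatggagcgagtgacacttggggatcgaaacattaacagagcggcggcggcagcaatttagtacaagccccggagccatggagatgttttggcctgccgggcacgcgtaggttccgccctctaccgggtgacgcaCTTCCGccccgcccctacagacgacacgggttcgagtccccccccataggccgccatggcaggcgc

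All 7 hold CGGAAG at least once, fallers, riser and uncalled gene alike, but that motif was chosen after these sequences were read. These 7 are also among the promoters counted below, so nothing is read from the CGGAAG shares. A RefSeq promoter was found for 132 members. CGGAAG was in 46.7% of the 30 promoters of members lower at 3 h than at 0.5 h, 32.7% of the 98 of members not called and 17.2% of all 27025 promoters. GGGCGG, the GC box, was in 53.3%, 42.9% and 35.9% of these, and CCAAT in 46.7%, 58.2% and 37.9%. TGACG, the core of the cAMP response element, was in 40.0%, 27.6% and 21.0%, while the full TGACGTCA was in 0 of the 30, 2 of the 98 and 1.88% of all. TGANTCA, the AP-1 letters, was in 3.33%, 6.12% and 7.93%, and TATAAA in 3.33%, 2.04% and 14.2%. The median number of CpG pairs was 17 in promoters of members that fell, 11.5 in those not called and 7 in all. The part of CpG content in these shares was not tested, and a match describes the sequence and names no site. Both strands were searched, and matches of different motifs can overlap.

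Rises from 0.5 h to 3 h were fewer and smaller. Zfp667 (ENSMUSG00000054893), whose rat counterpart is known from ischaemic preconditioning of the heart, had 9.22 and 8.28 cRPKM at 3 h, against 4.90 and 5.16 at 0.5 h, with 4.91 and 5.59 in untreated neurons. Both 3 h libraries were above the other 4, a change of 0.88 ± 0.12 (adjusted p = 0.017), or 1.84-fold. Zfp948 (ENSMUSG00000067931) had 15.99 and 15.52 cRPKM at 3 h, against 10.96 and 10.01 at 0.5 h, with 9.50 and 9.31 in untreated neurons. Its groups did not overlap, and its change was 0.66 ± 0.10 (adjusted p = 0.022). Zfp664 (ENSMUSG00000079215) had 35.24 and 40.04 cRPKM at 3 h, against 26.27 and 28.77 at 0.5 h, with 26.25 and 26.73 in untreated neurons (0.53 ± 0.09, adjusted p = 0.025). Zfp954 had 8.40 and 7.66 cRPKM at 3 h, against 5.53 and 5.23 at 0.5 h, with 4.74 and 5.08 in untreated neurons (0.66 ± 0.14, adjusted p = 0.039). Zfp711, linked in humans to X-linked intellectual disability, had 12.76 and 10.22 cRPKM at 3 h, against 7.82 and 7.09 at 0.5 h, with 7.69 and 6.78 in untreated neurons, a change of 0.71 ± 0.16 and an adjusted p just under 0.05. In these 3 genes too both 3 h libraries were above the other 4. Without either untreated library Zfp667 was the only rise of the 5 still called (adjusted p 0.045 to 0.1 over the 5). None was called without either 0.5 h library (0.11 to 0.24), and Zfp711 and Zfp954 were not called without 3 h replicate 1 (0.025 to 0.076 over the 5).

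By symbol prefix, the median change was lowest in Zkscan members and near 0 in Zscan members. Of 11 Zkscan members 5 fell and 0 rose (median −0.55), of 134 tested Zfp members 29 fell and 5 rose (median −0.24), and of 10 Zscan members 1 fell and 0 rose (median 0.02). With the replicate block 5 Zkscan, 47 Zfp and 3 Zscan members were lower and 0, 9 and 1 higher. Of all genes, 15.6% were called each way with the block. The difference between prefixes was not tested. Beside the 3 Zkscan genes above, Zkscan8 (ENSMUSG00000063894) fell to 1.46 and 2.20 cRPKM at 3 h, against 4.24 and 4.36 at 0.5 h (−1.17 ± 0.17, adjusted p = 0.019). Zkscan2 (ENSMUSG00000030757) fell to 2.91 and 3.68 cRPKM at 3 h, against 7.17 and 7.59 at 0.5 h (−1.09 ± 0.12, adjusted p = 0.012). The 5 Zkscan falls were called without either untreated or either 3 h library (adjusted p 0.014 to 0.048), but not without either 0.5 h library (0.083 to 0.11). Zscan2 (ENSMUSG00000038797) was the Zscan member that fell, with 1.31 and 1.35 cRPKM at 3 h, against 3.54 and 2.90 at 0.5 h (−1.20 ± 0.17, adjusted p = 0.018). It was not called without either untreated library (0.055 and 0.054) or either 0.5 h library (0.12 and 0.097).

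The remaining Zkscan members were not called at 3 h against 0.5 h. Zkscan3, whose human counterpart represses autophagy genes, had 12.91 and 18.89 cRPKM at 3 h, against 16.33 and 16.60 at 0.5 h (0.02 ± 0.16, adjusted p = 0.95), so its 3 h libraries lay on either side of the earlier ones. Zkscan5 had 6.81 and 17.10 cRPKM at 3 h, against 5.86 and 5.89 at 0.5 h, and the wide gap between its 3 h libraries left a log2 difference of 1.08 ± 0.37 uncalled (adjusted p = 0.12). Zkscan14 (−0.55 ± 0.24), Zkscan1 (−0.26 ± 0.10), Zkscan6 (−0.21 ± 0.19) and Zkscan17 (0.13 ± 0.09) had adjusted p from 0.15 to 0.51. Of the other Zscan members, Zscan20 came nearest, with 1.04 and 1.23 cRPKM at 3 h, against 1.87 and 1.74 at 0.5 h (−0.59 ± 0.14, adjusted p just above 0.05). Zscan30 (−0.69 ± 0.32), Zscan26 (−0.45 ± 0.16), Zscan22 (0.01 ± 0.17), Zscan25 (0.02 ± 0.16), Zscan21 (0.13 ± 0.16), Zscan12 (0.31 ± 0.18), Zscan29 (0.37 ± 0.15) and Zscan18 (0.54 ± 0.16) had adjusted p from 0.089 to 0.98. Zscan20 and Zscan26 were lower and Zscan18 higher with the replicate block (adjusted p = 0.019, 0.019 and 0.028). The other mouse Zfp symbols, outside this range, were taken with no level threshold, unlike the members. They gave 39 lower and 11 higher of 217 tested (median −0.30), and 90 and 15 with the block. Whether they differ from the members was not tested.

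**Figure D2:**
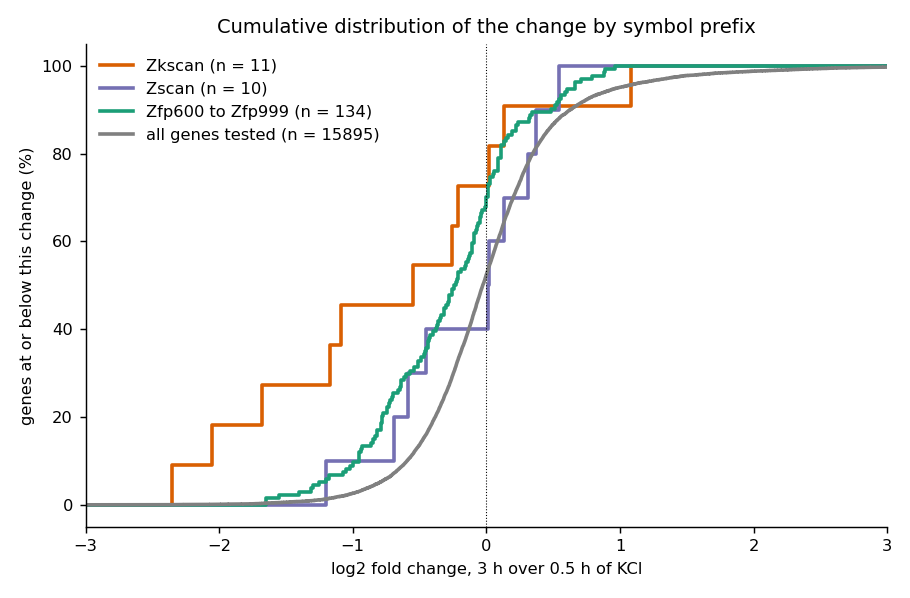
Cumulative share of genes (%) at or below each log2 fold change of 3 h over 0.5 h, for Zkscan, Zscan and Zfp members and all genes tested. The Zkscan line lies left of the others over most of its range, with a median of −0.55, against −0.24 for Zfp members and −0.03 for all genes.

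The share of members that fell differed by resting level. Of members at 1 to under 3 cRPKM in untreated neurons, 13 of 33 (39.4%) fell between 0.5 h and 3 h and 0 rose, with a median of −0.74. Of those at 3 cRPKM or more, 22 of 118 (18.6%) fell and 5 rose, with a median of −0.11, and of the 4 below 1 cRPKM 0 were called. With the replicate block 20 of 33, 34 of 118 and 1 of 4 were lower, and 1, 9 and 0 higher. Without the block, all genes in the same bands were called lower in 6.38%, 5.97% and 2.02% of cases. With it, 384 of 1692, 1804 of 10596 and 126 of 794 were lower, and 269, 1751 and 109 higher. Spearman's rho between untreated level and change was 0.42 across 155 members and 0.07 across 15895 genes, a description across genes that share libraries. The bands and this rho include 12 members scaled by a length under 500 bases, described below, which raises their cRPKM. Their median change was 0.40 and 0 were called, and most lay in the band of 3 cRPKM or more. Their part in the trend with level was not tested. Banding by the mean of all 6 libraries gave 12 of 32, 20 of 115 and 3 of 8 called lower, but that mean contains the 3 h value. The difference between bands was not tested. The highest resting level of any member that fell was that of Zfp637, with 15.31 and 17.56 cRPKM at 3 h, against 25.21 and 23.98 at 0.5 h (−0.51 ± 0.11, adjusted p = 0.041; chosen after its values were seen). The median level at 0.5 h of the members that fell was 4.19 cRPKM, from 1.18 to 24.6 cRPKM.

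**Figure D3:**
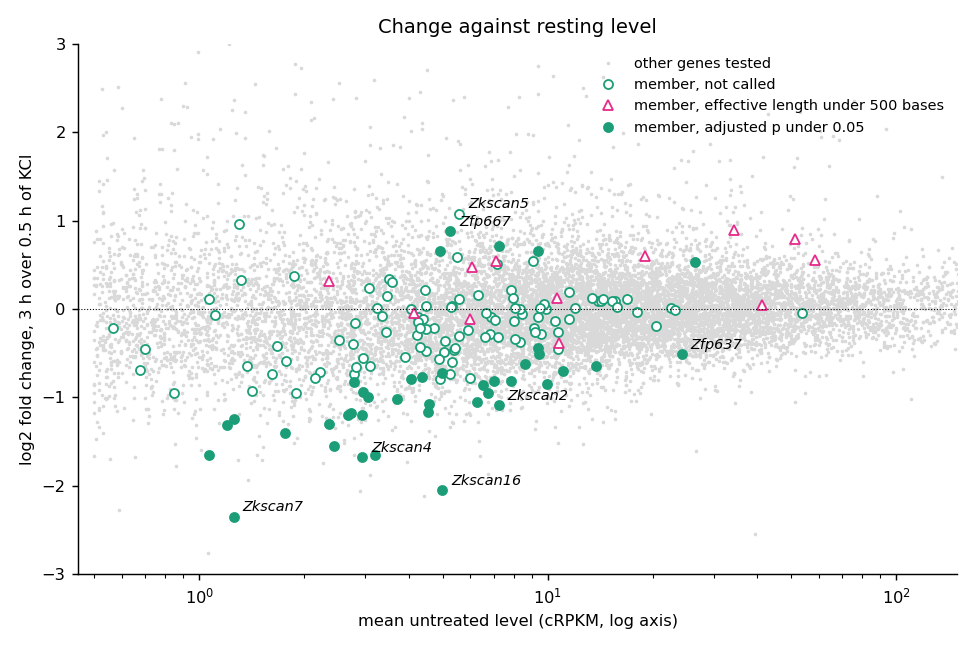
Log2 fold change of 3 h over 0.5 h against mean untreated level (log axis) for members (green, filled where called; triangles for an effective length under 500 bases) and other genes tested (grey); other genes outside the axes are not drawn. Of members at 1 to under 3 cRPKM, 13 of 33 fell. The lowest filled point is Zkscan7 (−2.35), at 1.25 cRPKM, and the next is Zkscan16 (−2.05), at 4.98 cRPKM.

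All but 1 of the 5 highest levels among the members were scaled by a short length. The count divided by cRPKM and library total gives the length by which the authors' value was scaled, called effective length here. It was under 500 bases in 13 members, down to 3 bases for Zfp987, whose annotated transcript has 2798 bases. Averaged over 6 libraries, Zfp971 had 64.5 cRPKM from 456 to 744 counts, Zfp932 59.0 cRPKM from 587 to 1193 counts, Zfp931 44.2 cRPKM from 142 to 274 counts and Zfp987 41.8 cRPKM from 8 to 25 counts. Zfp706, a small protein known from the exit of mouse embryonic stem cells from self-renewal, had 51.1 cRPKM from 19621 to 31550 counts and is the member of these 5 with a long effective length (4163 bases). Words of 50 bases shared with another gene made up 93.1% of the Zfp987 transcript and 52.6%, 55.5% and 42.4% of those of Zfp931, Zfp932 and Zfp971. Of the 13, Zfp972, with 2 to 10 counts, did not pass the count filter. Of the other 12, 0 were called at 3 h against 0.5 h, 9 lay above 0 and the median was 0.40; with the replicate block 1 was higher, Zfp966 (0.60 ± 0.17, adjusted p = 0.026; chosen after its values were seen). Their 3 h replicate 2 was higher than replicate 1 in 11 of 12, by a median ratio of 1.69, against 109 of 143 and 1.18 in members of 500 bases or more. Without them the members gave 35 lower and 5 higher of 143, with a median of −0.28.

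**Figure D4:**
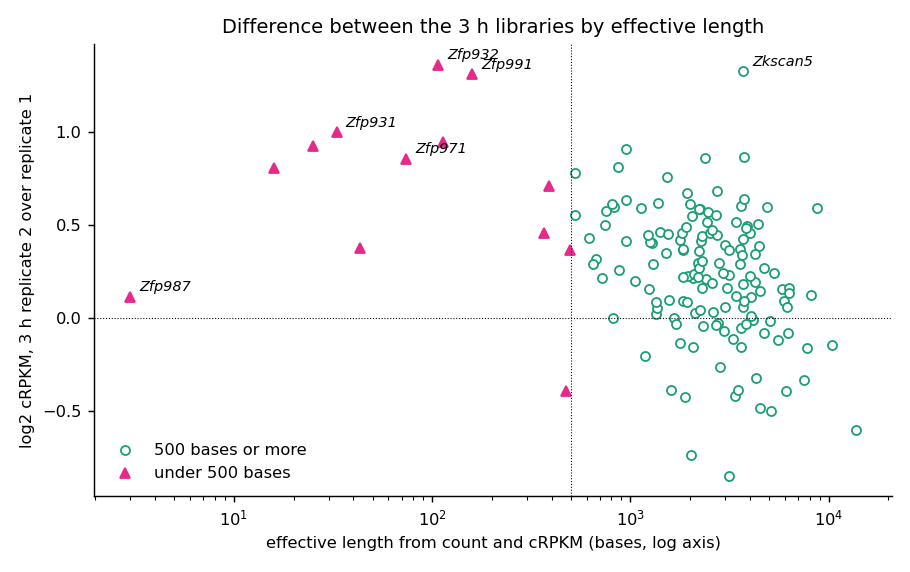
Log2 ratio of cRPKM in 3 h replicate 2 over 3 h replicate 1 against effective length in bases (log axis), 1 point per member, with triangles for members under 500 bases. Triangles lie mostly above 0, with a median ratio of 1.69, against 1.18 for circles.

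Most groups of neighbouring members with a fall also held members that were not called. By the GENCODE annotation, 96 members lay in 31 groups with less than 200 kb between neighbouring members, and 15 groups held a member that fell. By the main test each of those 15 also held a member that was not called lower, and 0 groups fell throughout. With the replicate block 1 of 16 groups with a fall was lower throughout, and with DESeq2 2 of 16. The group lower throughout by both was that of Zfp712 (−1.40), Zfp708 (−0.73) and Zfp759 (−1.65) on chromosome 13, chosen after its values were seen. There Zfp708 had 0.85 and 1.00 cRPKM at 3 h, against 1.63 and 1.60 at 0.5 h, with an adjusted p of 0.052, or 0.014 with the block, and in all 3 genes both 3 h libraries were below both 0.5 h libraries. On chromosome 13, Zkscan4 (−1.68 ± 0.22) and Zkscan8 (−1.17 ± 0.17) fell, while Zscan12 (0.31 ± 0.18), Zkscan3 (0.02 ± 0.16) and Zscan26 (−0.45 ± 0.16) in the same group were not called; with the block Zscan26 was lower as well (0.019). In the group of 11 on chromosome 17, Zfp677 fell (−1.65 ± 0.23) and the next member along, Zfp948, rose (0.66 ± 0.10), as the promoters printed above stand. The other 9 of that group ran from −0.95 to −0.05 and were not called, though Zfp760, Zfp943 and Zfp947 were lower with the block (adjusted p = 0.042, 0.038 and 0.041). On chromosome 6, Zfp786, Zfp956 and Zfp777 fell (−1.30 ± 0.16, −0.85 ± 0.18 and −0.64 ± 0.09). Between them Zfp783 (−0.21 ± 0.33) was not called, but it rested on only 34 to 56 counts in a library. Zfp746 (−0.37), which encodes the Parkin substrate PARIS, was not called either. The members of these last 2 groups were named by their place in the group, after their values were seen. Of the 35 falls, 21 were among the 96 members in such groups and 14 among the 60 outside. Over all tested members 22.6% fell, and a difference by place was not tested. Library reads do not mark the strand, so counts where neighbours overlap could be shared.

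**Figure D5:**
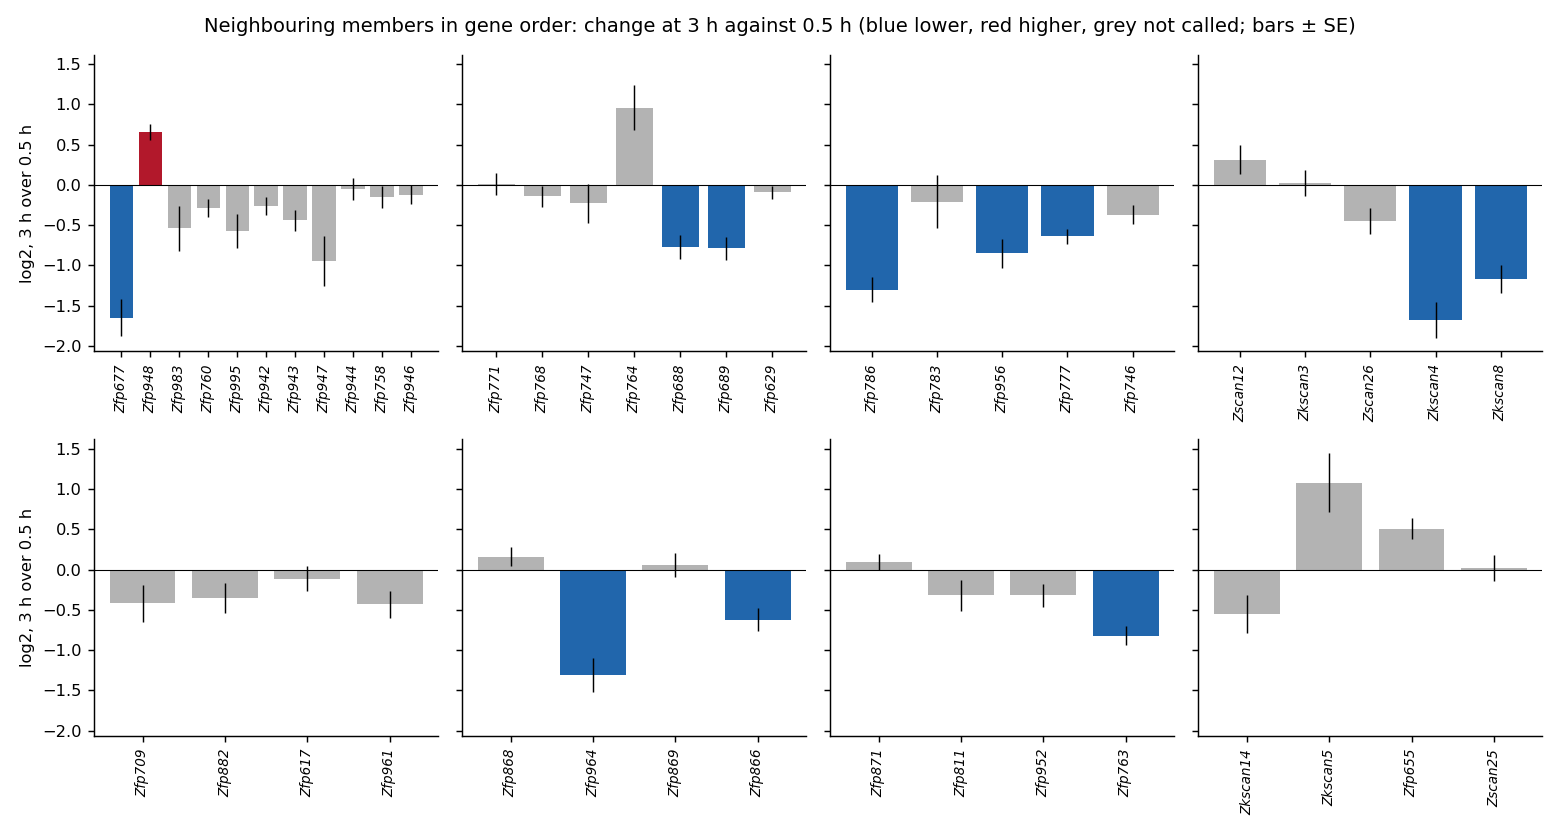
Log2 fold change of 3 h over 0.5 h (bars, ± SE) for the 8 groups of 4 or more neighbouring members, in gene order. Blue bars are called lower, red higher and grey not called; blue and grey bars stand side by side within groups, and Zfp677 (−1.65) stands beside Zfp948 (0.66).

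Protein features were read from the annotation. A coding sequence was annotated for 153 members, with a median of 10 C2H2 fingers and a range of 0 to 33. Core letters of a KRAB domain were found in 80 and of a SCAN domain in 18. A missing match says only that those letters are absent. Among Zkscan members, whose symbols denote KRAB, the KRAB letters were found in Zkscan16 alone. Absence of the letters therefore does not separate members by KRAB domain. Zkscan16 held both sets of letters and is counted under each. Of 79 tested members with KRAB letters, 20 fell and 2 rose between 0.5 h and 3 h (median −0.35), of 18 with SCAN letters 5 fell and 0 rose (−0.23), and of 56 with neither 11 fell and 3 rose (−0.05). With the replicate block these counts were 32 and 4, 7 and 1, and 17 and 5. Of all genes tested, 4.87% were lower and 6.39% higher, and 15.6% each way with the block. By finger number, 6 of 36 with 0 to 6 fingers fell, 16 of 73 with 7 to 12 and 13 of 43 with 13 or more; with the block 9, 26 and 20 fell. Across 152 members, Spearman's rho of the change was −0.19 with finger number and −0.18 with 3′ UTR length, and across 155 it was −0.05 with GC content. Such values are a description across genes that share libraries. Members that fell had a median GC content of 48.9% and the other tested members that were not called 43.4%.

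Set against untreated neurons, 42 of 155 members were lower at 3 h and 6 higher, where 6.84% of all genes were lower and 8.71% higher. This comparison used the untreated level that chose the members, and nothing is read from the count. All 35 members lower than at 0.5 h were among the 42, which is 83.3% of them, and the comparisons share the 3 h libraries. Both 3 h libraries were below both untreated libraries in 90 members and above in 19, where all genes gave 35.9% and 24.1%. The 10 largest differences ran from −2.22 ± 0.20 (Zkscan7) to −1.27 ± 0.17 (Zkscan8), with Zfp759 at −1.87 ± 0.27, Zfp839 at −1.67 ± 0.17, Zfp712 at −1.61 ± 0.28, Zfp677 at −1.53 ± 0.23, Zfp786 at −1.50 ± 0.17 and Zfp879 at −1.30 ± 0.22. The 7 lower against untreated alone were Zfp618, Zfp708, Zfp784, Zfp825, Zfp937, Zkscan1 and Zscan20, and their adjusted p against 0.5 h ran from 0.05 to 0.15. All but Zkscan1 were also lower against 0.5 h with the replicate block. Of these 7 the Zfp genes are named to complete the count, after their values were seen. Zscan18 was the sixth higher member, at 15.94 and 12.20 cRPKM at 3 h, against 9.29 and 8.88 in untreated neurons (0.69 ± 0.16, adjusted p = 0.044). With the replicate block the counts were 65 lower and 10 higher (18.6% of all genes each way), and with DESeq2 51 and 11 (11.6% and 14.3%). Leaving out either untreated library removed nearly every call of a member, and leaving out either 0.5 h library removed part of them. Each such fit leaves 1 group with a single library.

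At 0.5 h no member was called against untreated neurons. EdgeR called 0 lower and 0 higher of 155, as did DESeq2, while 0.0% of all genes were called lower and 0.0377% higher by edgeR. The fit with the replicate block also called 0 and 0, against 0.0818% of all genes higher, and 0 members had an unadjusted p under 0.05 without the block. The member values ran from −0.38 to 0.40 with a median of −0.02, and 143 of 155 lay within 0.25 of 0. The 3 with the smallest p were Zkscan1, Zfp976 and Zfp865. Zkscan1 had 8.66 and 7.68 cRPKM at 0.5 h, against 9.24 and 9.17 in untreated neurons (−0.19 ± 0.10). Zfp976 had 1.63 and 1.70 cRPKM at 0.5 h, against 1.33 and 1.31 (0.31 ± 0.18), and Zfp865 had 8.21 and 9.14 cRPKM, against 9.33 and 9.58 (−0.15 ± 0.09). Their libraries did not overlap between groups, and the adjusted p was 1 for each. Over the 155 tested members both 0.5 h libraries were below both untreated libraries in 23 and above in 27. All genes gave 6.38% and 14.8%, and this comparison too used the untreated level that chose the members. The 35 members that fell by 3 h stood at −0.23 to 0.12 at 0.5 h, with a median of −0.05.

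Among genes for the partners of KRAB proteins, a few were called lower and none higher at 3 h without the replicate block. A difference from genes at large was not tested. Of 25 genes of the Trim28 and heterochromatin machinery, 3 were lower at 3 h than in untreated neurons and 0 higher, with a median of 0.07, where 6.84% of all genes were lower and 8.71% higher. Fam208a, a subunit of the HUSH silencing complex also known as Tasor, had 5.80 and 6.20 cRPKM at 3 h, against 9.62 and 9.10 in untreated neurons (−0.59 ± 0.09, adjusted p = 0.015). Morc3, a chromatin ATPase, had 6.91 and 7.83 cRPKM at 3 h, against 11.48 and 10.64 (−0.53 ± 0.10, adjusted p = 0.024). Atf7ip, a partner of Setdb1, had 11.78 and 10.09 cRPKM at 3 h, against 19.43 and 18.39 (−0.73 ± 0.14, adjusted p = 0.027). In these 3 genes the groups did not overlap, and they were also lower at 3 h than at 0.5 h. The fourth smallest p was that of Mbd1, a methyl-CpG binding protein gene (0.28 ± 0.08, adjusted p = 0.066; called higher with the replicate block, 0.033). Trim28 itself had 64.9 ± 5.5 cRPKM at 3 h, against 56.0 ± 2.4 in untreated neurons (SD, n = 2 each; adjusted p = 0.19 by edgeR, and called higher with the block, 0.042), and Setdb1 15.7 ± 0.92, against 17.4 ± 0.34 (adjusted p = 0.5). With the replicate block 3 of the 25 were lower and 4 higher, Trim28 and Mbd1 among these, where 18.6% of all genes were called each way. Trim28 and Setdb1 are given for their known role, outside the rule for named genes.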

How the data were processed

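RNA libraries were made from TriReagent extracts with the TruSeq RNA kit, per the labels' protocols; this kit keeps no strand information. Bowtie and the build mm9 are named in the submitters' processing notes. Versions, the annotation and the treatment of reads with several matches were not given in the sources used here. The authors deposited, per gene, a whole-number read count, not normalized, and an RPKM value called cRPKM, which followed count over library total within 0.00765% between libraries. Column names are not in the files.

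Counts were tested with edgeR 4.0.16 (TMM, filterByExpr with a minimum count of 10, quasi-likelihood F test, 1 fit of 6 libraries with group as the term, 3 residual degrees of freedom) and p-values adjusted by Benjamini-Hochberg over 15895 genes; fold changes are log2 values of these scaled counts, not of cRPKM. The procedure was tested on simulated data. Those had less spread between libraries than these data and no pairing of replicates, so that test does not give the error rate here. Alternatives were DESeq2, limma, other scalings, no count filter, a replicate block, each library left out and other level thresholds; leaving out short effective lengths was chosen after seeing the data. The differences between replicates 1 and 2 correlated across genes with r = 0.81, 0.58 and 0.61 between pairs of groups, so the numbers were read as a pairing, from the data and not the labels. The members, gene lists and motifs were chosen with earlier results of these data known. Named members are the 10 largest falls and rises past the threshold with libraries that do not overlap, all Zkscan and Zscan members, the 5 highest levels, the 3 smallest p at 0.5 h, genes at the level threshold, and 4 corepressor genes; any other gene named is marked as such where its values are given. Symbols, coding sequences, neighbours and shared words of 50 bases came from GENCODE mouse release M21, promoters from RefSeq, GRCm38.p6; neither is the authors' build. Fingers were counted with 2 residues between the cysteines, 12 to the histidines and 3 to 5 between these.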

Additional observations from a re-analysis of the deposited data

Results flagged for a closer look

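The effect of KCl at 3 h differed from that at 0.5 h in the 15 members below, since the 3 h against 0.5 h comparison is also the test of the difference between both effects. Among the falls, the log2 difference between the effects was −2.35 for Zkscan7, −2.05 for Zkscan16, −1.68 for Zkscan4, −1.65 for Zfp677, −1.65 for Zfp759, −1.55 for Zfp839, −1.40 for Zfp712, −1.31 for Zfp964, −1.30 for Zfp786 and −1.25 for Zfp879. Among the rises it was 0.88 for Zfp667, 0.71 for Zfp711, 0.66 for Zfp948, 0.66 for Zfp954 and 0.53 for Zfp664. Groups of 2 libraries are too small to test for a library that stands apart.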

How the results depend on the processing

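At 3 h against 0.5 h, the 35 lower members became 55 and the 5 higher 10 with the replicate block, and 11 were higher with DESeq2. Leaving out each library in turn gave 0 to 32 lower and 0 to 11 higher, with a median change from −0.33 to −0.16. At 3 h against untreated, the 42 lower became 65 and the 6 higher 10 with the replicate block, and 11 were higher with DESeq2; leaving out each library gave 0 to 37 lower and 0 to 13 higher, with a median from −0.35 to −0.19. A fit without a library has fewer degrees of freedom and takes the lone sample of its group to vary like the others; why counts moved with the block or DESeq2 was not tested. RLE size factors, library totals, no count filter, limma with either pseudocount, other level thresholds and leaving out short effective lengths kept both lower counts within 1.5 times, and none of these settings reversed a call. At 0.5 h against untreated the member counts were 0 in every setting. Depth limits members such as Zfp972, with 2 to 10 counts, Zfp986, with 8 to 21, and Zfp987, with 8 to 25. Zfp986 was named after its values were seen.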

Other observations

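Of the 22 matching symbols below the level threshold, 9 passed the count filter and 1 was called. Zfp872, chosen after its values were seen, had 0.05 and 0.06 cRPKM at 3 h, against 0.24 and 0.16 cRPKM at 0.5 h, with 0.22 and 0.18 cRPKM in untreated neurons (log2 change against 0.5 h −1.76 ± 0.39, edgeR adjusted p = 0.045), from at most 42 counts in a library.

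The remaining marker lists gave these summed levels. Oligodendrocyte lineage markers summed to 226 to 305 cRPKM at 3 h, 198 to 257 at 0.5 h and 206 to 295 in untreated neurons, and progenitor markers to 80.8 to 105, 72.3 to 79.6 and 82.2 to 92.2. Fibroblast markers summed to 29.2 to 44.0 cRPKM at 3 h, 32.9 to 44.1 at 0.5 h and 32.2 to 43.5 in untreated neurons, with 1 of 6 called lower at 3 h. Erythroid markers summed to 7.01 to 7.48, 5.23 to 5.83 and 4.22 to 5.30 cRPKM at these times, with 1 of 5 at 0 in all libraries.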
